A study of Mus musculus with 9 samples.

Results

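The vehicle livers are the control group of a mouse acetaminophen study, and they are described here on their own, as a picture of which genes an uninjured liver transcribes and how much 3 such livers differ. They were picked by their treatment label, which reads Vehicle, and they are 3 of the 9 livers sequenced. Each came from a Balb/c mouse at the age of 9 weeks and gave 1 library, made from 1 µg of RNA with a TruSeq mRNA kit. The other 6 livers, 3 labelled APAP (acetaminophen) and 3 labelled LRH1+APAP (acetaminophen with LRH1, a nuclear receptor), appear only where their spread is set beside that of the vehicle livers. All groups share the strain, age and tissue. The sources used here do not state what the vehicle was, how and when it was given, the feeding state or the sex of the mice, so these livers received a vehicle and were not untouched.

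The liver parenchyma is made of hepatocytes, which take up nutrients from the portal blood, store and release glucose, burn and build fatty acids, turn ammonia into urea and make bile acids. Hepatocytes also secrete most plasma proteins, among them albumin, apolipoproteins, clotting factors, complement and protease inhibitors, and in mice the major urinary proteins, small lipocalins that carry pheromones into urine. Enzymes that detoxify drugs, such as cytochromes P450 and the transferases that conjugate their products, are a further hallmark of the organ. Kupffer cells, sinusoidal endothelial cells, stellate cells and bile duct cells make up the remainder.

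Abundance is given as FPKM, the fragments counted for a transcript scaled by its length and by the mapped fragments of the library, summed over the transcript models of a gene symbol. Because FPKM divides by transcript length, a share of summed FPKM approximates a share of transcript molecules and not of sequenced bases. Errors are SD over the 3 livers throughout. Above 1 FPKM in every liver were 9979 of 24541 symbols, which is 40.7%, and a further 648 passed 1 FPKM in some but not every liver. At the other end 7997 symbols were listed at 0 in every liver. By mean, 4210 symbols exceeded 10 FPKM, 671 exceeded 100 and 69 exceeded 1000.

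The transcriptome was steeply graded. The 10 genes of highest mean held 25.1% ± 1.60 of summed FPKM, the 20 highest held 34.4% ± 0.673 and the 100 highest held 54.7% ± 0.556. Between 66 and 71 symbols were enough to hold 50% of the FPKM of a liver, while 2208 to 2310 were needed to hold 90%. The same genes led in each animal, with 9 symbols in the top 10 of every liver, 18 in the top 20 of every liver and 92 in the top 100 of every liver. The 69 symbols above 1000 FPKM, with a median leading transcript of 1349 bases, held 50.2% of all FPKM. The 2157 symbols between 5 and 10 FPKM, with a median of 2963 bases, held 2.75%.

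**Figure D1:**
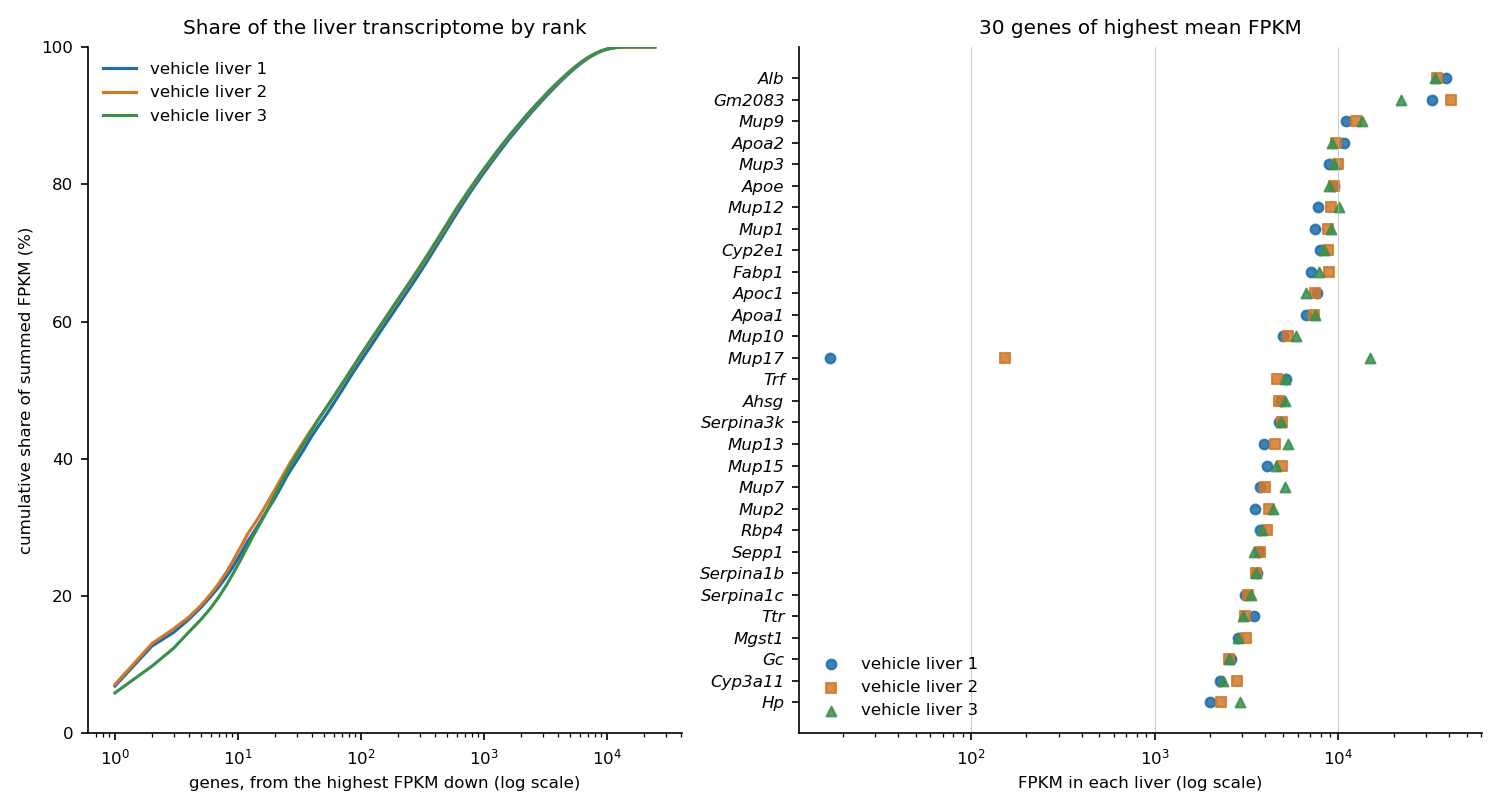
Left, cumulative share of summed FPKM (%) against genes ordered from the highest FPKM down (log scale), 1 line per vehicle liver; right, FPKM (log scale) of the 30 genes of highest mean, 1 point per liver. The 3 curves come closer together with rank, and among the 30 genes Mup17 is the one whose livers lie far apart, at 17.1, 153.0 and 14767 FPKM.

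Albumin, the main protein of plasma, had the highest mean, with Alb at 38329, 34244 and 33379 FPKM in livers 1, 2 and 3. It made up 6.25% ± 0.564 of summed FPKM, and liver 1 stood above livers 2 and 3. Apolipoproteins, which package lipids for transport in blood, filled 4 of the next places. Apoa2 and Apoa1, the main proteins of high-density lipoprotein, stood at 9893 ± 729 and 7185 ± 422 FPKM. Apoe, which guides lipoprotein remnants back into hepatocytes, stood at 9266 ± 307 FPKM, and Apoc1 at 7268 ± 512. A pair of intracellular proteins reached the same level. Cyp2e1, the cytochrome P450 that oxidises ethanol and acetaminophen, was at 7967, 8817 and 8335 FPKM, and Fabp1, the fatty acid binding protein of hepatocytes, was at 7132, 8862 and 7839. Among Alb, these apolipoproteins, Cyp2e1 and Fabp1, the widest spread was that of Fabp1, at 1.24-fold. Transferrin (Trf), which carries iron, fetuin-A (Ahsg) and the serpin Serpina3k followed at 4961 ± 310, 4897 ± 178 and 4835 ± 107 FPKM.

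Major urinary proteins filled the largest block of high ranks. Of 21 Mup symbols, 20 exceeded 1 FPKM, and 9 of the 20 genes of highest mean belonged to the family. Mup9, the highest by mean of the symbols named Mup, was at 11006, 12431 and 13485 FPKM. In liver 3 Mup17 stood above Mup9, at 14767. Mup3 was at 8857, 9934 and 9436 FPKM, and Mup12 and Mup1 at 8954 ± 1201 and 8480 ± 889. The range within the family was wide, down to 2.23 ± 0.815 FPKM for Mup16 and 0.181 ± 0.0727 for Mup4. A further symbol, Gm2083, is described with the deposited values as a major urinary protein and was second by mean, at 32360, 40986 and 21995 FPKM, above albumin in liver 2. It is listed at 6 places on chromosome 4, and its sum over them was lowest in liver 3, where Mup17 was high.

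How far such values can be assigned to single genes is visible in the sequences. The coding sequence of Mup9 (540 bases, GENCODE M21 on GRCm38) differs from that of Mup17 at 4 bases, from Mup12 and Mup1 at 3 bases each and from Mup2 at 2 bases. The diverged members differ more, with 86.2% identity between Mup9 and Mup3 and 91.5% between Mup9 and Mup20. The 60 bases from coding base 190 on are shown 5′ to 3′ because they hold such differences, and capitals mark bases that differ from Mup9.
Mup9: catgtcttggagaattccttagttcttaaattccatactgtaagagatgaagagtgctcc
Mup17: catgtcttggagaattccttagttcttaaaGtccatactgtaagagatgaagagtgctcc
Mup12: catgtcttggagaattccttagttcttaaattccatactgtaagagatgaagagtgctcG
Mup1: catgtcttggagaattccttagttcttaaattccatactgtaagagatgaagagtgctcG
Mup2: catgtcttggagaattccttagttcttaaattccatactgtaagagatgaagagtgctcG
Over this window Mup12, Mup1 and Mup2 share 1 sequence, so a fragment from inside it cannot be placed on one of the 3 genes. FPKM of single Mup genes is therefore uncertain, and the sum over the family is firmer. With Gm2083 counted among them, an assignment made after its value was seen, the Mup genes held 17.0, 19.5 and 19.8% of summed FPKM in livers 1 to 3.

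At 1 locus the split between symbols turned over from liver to liver. Mup17 (mm10 chr4:61591932-61595832) and a copy of Gm2083 (mm10 chr4:61591931-61595825) have nearly the same span. Mup17 was at 17.1, 153.0 and 14767 FPKM, and that copy of Gm2083 at 13821, 20864 and 1.94. Livers 1 and 2 carried the signal under one name and liver 3 under the other. At this locus alone the name that carried the signal stood at 13821, 20864 and 14767 FPKM, so liver 2 was highest. With all 6 places of Gm2083 added to Mup17, the sum was 32377, 41139 and 36762 FPKM. That sum spread by 1.27-fold, which is not the spread of this locus alone. The other 5 places of Gm2083 ranged from 992 to 11483 FPKM over the livers, and liver 3 was highest at each.

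The promoters of the most abundant genes also differed in composition from those of the expressed genes at large. RefSeq promoter sequence (GRCm38.p6) was matched by symbol for 69 of the 100 most abundant genes, for 4960 of the 6367 symbols whose mean reached 5 FPKM, and for 27025 symbols in all. The letters TATAA on the gene's strand, beginning and ending between 45 and 16 bases before the start, were present in 18 of the 69, which is 26.1%. The share was 2.70% for symbols of at least 5 FPKM and 4.23% for all promoters of the same length. Without the Mup genes it was 20.3% of 59 promoters. The letters CGCG, a sign of a CpG island, occurred within 250 bases upstream in 15.9% of the 69, against 62.8% of those at 5 FPKM or more and 34.0% of all. The letters CCAAT on either strand occurred in 50.7%, against 37.2% and 34.5%. Median GC content was 48.0% in the 69 and 59.6% in those at 5 FPKM or more. The last 60 bases before the start are shown for 5 of the most abundant genes, 4 with TATAA in capitals and albumin without it.
Mup9: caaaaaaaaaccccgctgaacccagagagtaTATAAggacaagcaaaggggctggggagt
Cyp2e1: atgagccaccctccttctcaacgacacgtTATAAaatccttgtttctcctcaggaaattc
Fabp1: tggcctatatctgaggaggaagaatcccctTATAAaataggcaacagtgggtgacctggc
B2m: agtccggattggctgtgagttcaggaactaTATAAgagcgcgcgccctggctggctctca
Alb: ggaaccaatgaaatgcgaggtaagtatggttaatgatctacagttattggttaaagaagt
In genome order these lie at chr4:60421953-60422012 (minus strand) for Mup9, chr7:140763759-140763818 (plus) for Cyp2e1, chr6:71199819-71199878 (plus) for Fabp1, chr2:122147627-122147686 (plus) for B2m and chr5:90460810-90460869 (plus) for Alb. A match is a string of letters at a distance from the RefSeq start and not a measured site, and the absence of a match in this window says nothing about the factors that act there.

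Grouped by function, 24 classes of named genes held 67.1% ± 1.77 of summed FPKM. Secretion dominated. The 7 classes of secreted proteins together held 39.4% ± 2.17, and 45.0% ± 0.739 with Gm2083 counted among the Mup genes. The Mup class alone held 11.2, 12.4 and 15.9% in livers 1 to 3. Apolipoproteins held 7.38% ± 0.261 in 15 symbols, and the albumin family held 6.73% ± 0.577 in 4, of which Gc, the vitamin D binding protein, was second at 2568 ± 28.7 FPKM. Transport and acute phase plasma proteins held 4.49% ± 0.109, led by Trf, by Rbp4, which carries retinol, at 3892 ± 168 FPKM, and by the selenium carrier Sepp1 at 3650 ± 151.1. Serpins held 3.48% ± 0.0520 and were led by Serpina3k, Serpina1b and Serpina1c. Coagulation factors and other plasma protease inhibitors held 3.25% ± 0.193, with Ahsg, the alpha-2-macroglobulin relative Mug1 (1695 ± 232 FPKM) and the fibrinogen chain Fgb (1663 ± 169) on top. Complement held 0.875% ± 0.0300, led by C3, on which all complement pathways meet, at 1150 ± 55.1.

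Metabolic enzymes held further shares. Fatty acid and cholesterol metabolism held 4.35% ± 0.276, where Fabp1 led and the sterol carrier Scp2 stood at 1340 ± 75.8 FPKM. Cytochromes P450 with their electron donors held 3.82% ± 0.0910 in 98 symbols, of which 65 exceeded 1 FPKM, and Cyp2e1 alone made up 38.7% of them. Cyp3a11, which oxidises many drugs and steroids, followed at 2477 ± 285 FPKM. Other oxidoreductases held 2.56% ± 0.0790, led by Hpd, an enzyme of tyrosine degradation, by Tdo2, which opens the degradation of tryptophan, and by the alcohol dehydrogenase Adh1 at 1007 ± 107. The urea cycle and amino acid metabolism held 2.54% ± 0.111, with 62 of 63 symbols above 1 FPKM. Its leaders were Bhmt, which remethylates homocysteine (1417 ± 222 FPKM), Mat1a, which makes S-adenosylmethionine (1138 ± 53.6), and the tyrosine aminotransferase Tat (975 ± 83.5). The symbol Gm5424, listed at the span of the urea cycle gene Ass1, was counted outside the class. Gm5424 stood at 1361 ± 126 FPKM, above Mat1a, and held 0.241% of summed FPKM. Glucose and glycogen metabolism held 1.33% ± 0.0582, with the gluconeogenic enzymes Pck1 and Fbp1 at 1351 ± 44.0 and 747 ± 37.7 FPKM.

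Enzymes of detoxification beyond the P450s and of antioxidant defence were counted in separate classes. Glutathione transferases and glutathione turnover held 1.21% ± 0.0652, with Mgst1 at 2946 ± 168 FPKM making up 42.9% of the class. Carboxylesterases held 0.687% ± 0.0434, and glucuronosyl- and sulfotransferases 0.4997% ± 0.0319. Antioxidant, iron and metallothionein genes held 1.75% ± 0.0610, and the ferritin chains Ftl1 and Fth1, which store iron, led them at 2185 ± 42.1 and 1331 ± 58.5.

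Genes that every cell uses held smaller shares than the secreted proteins as a whole. Cytosolic ribosomal proteins held 2.94% ± 0.0275, and the nuclear-encoded respiratory chain and ATP synthase held 2.58% ± 0.0323, the smallest spreads relative to their mean among the 24 classes. Translation factors held 1.05% ± 0.0317, and chaperones 1.19% ± 0.0475. MHC and antigen presentation held 0.480% ± 0.0268, of which B2m, the light chain of MHC class I, made up 70.0%. Proteasome subunits held 0.421% ± 0.0120, and the cytoskeleton 0.228% ± 0.00533. Globins held 0.159, 0.104 and 0.0979% in livers 1 to 3. Outside the classes, the highest symbols beside Gm2083 were Car3, a carbonic anhydrase, at 1742, 1742 and 1307 FPKM and the ribosomal RNA precursor Rn45s at 2035, 601.2 and 1684. Genes encoded by mitochondrial DNA were not analysed here.

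**Figure D2:**
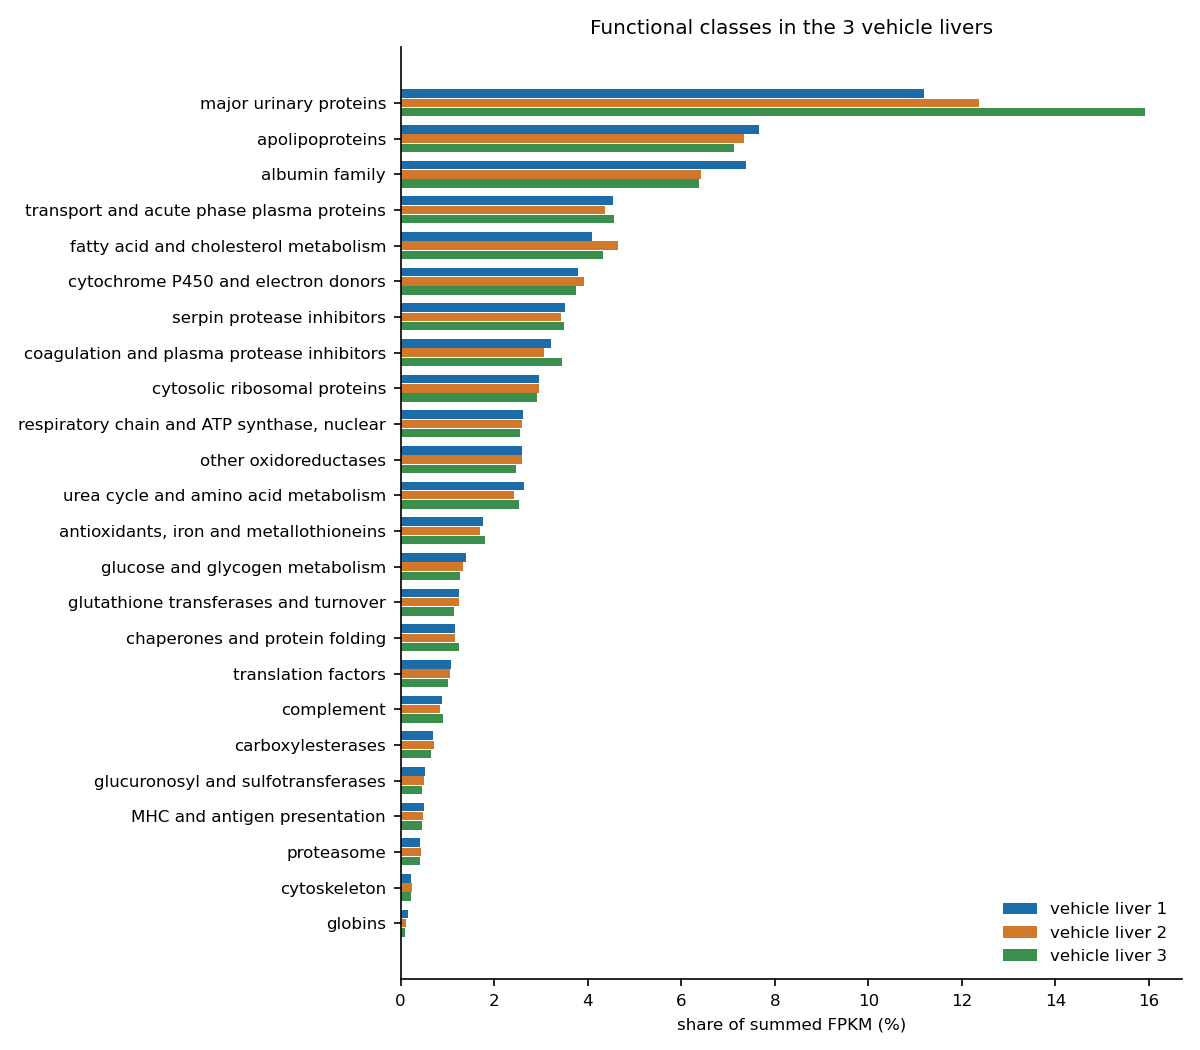
Share of summed FPKM (%) of 24 functional classes, with 1 bar per vehicle liver starting at 0. Major urinary proteins are the largest class at 11.2 to 15.9% without Gm2083, followed by apolipoproteins at 7.14 to 7.66% and the albumin family at 6.38 to 7.39%.

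In most gene families 1 member led, but only in a smaller number did it hold nearly all of the FPKM. Over 64 families of paralogs, the leading member held at least 50% of the family's FPKM in 48 and at least 90% in 17. In a family of 2 members, such as acetyl-CoA carboxylase, the leader holds about 50% or more by construction. The leader was the same in every liver in 59, and the FPKM ranges of first and second member did not overlap in 57. With 3 livers an exact paired permutation test of first against second cannot give a two-sided p below 0.25, so the ranges are given in its place. Families and members were set by symbol, and near-identical paralogs may share reads.

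In glycogen metabolism the liver isoforms held nearly all of the FPKM. The glycogen synthase Gys2 held 99.2% ± 0.186 of its pair and the phosphorylase Pygl 98.4% ± 0.340 of its family. The glucose transporter Slc2a2 and the pyruvate kinase Pklr, which are not glycogen enzymes, held less of their families, at 77.3% ± 2.39 and 84.9% ± 2.41. Several families of lipid metabolism had a leader that held nearly all. Fabp1 was at 97.5% ± 0.0418 of fatty acid binding proteins. Cpt1a, which admits fatty acids to mitochondria, was at 98.3% ± 0.821 of its family and Scd1, which desaturates stearate, at 98.8% ± 0.601. Acetyl-CoA carboxylase differed, in that Acacb and Acaca were at 3.92 ± 0.867 and 3.78 ± 0.333 FPKM and overlapped.

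Nitrogen and methyl metabolism was as uneven. Arg1, the urea cycle arginase, stood at 967 ± 10.5 FPKM and held 99.9% ± 0.0179. Gls2 held 98.9% ± 0.196 of the glutaminases, and Mat1a 96.8% ± 0.483 of the methionine adenosyltransferases. Among nuclear receptors that sense fatty acids, Ppara held 89.4% ± 2.23 at 63.0 ± 3.36 FPKM, against 5.01 ± 1.56 for Pparg.

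Detoxifying families ranged from 1 leader to several. Cyp1a2 held 99.7% ± 0.161 of Cyp1a FPKM, the sulfotransferase Sult2a8 99.8% ± 0.0404 of Sult2a and Gsta3 94.4% ± 0.397 of Gsta. Cyp3a11 held 77.6% ± 2.16 of Cyp3a, the drug and steroid oxidases, with Cyp3a25 second at 629 ± 33.2 FPKM. Cyp2d9 held 43.7% ± 1.90 of Cyp2d. The Cyp2c family was spread over 12 members above 1 FPKM, led by Cyp2c29 at 690, 506 and 444 FPKM in livers 1, 2 and 3, or 35.2% ± 4.29, and by Cyp2c67 at 235 ± 18.4. The Ugt2b leaders Ugt2b36 and Ugt2b5 overlapped, at 353 ± 32.1 and 345 ± 35.9 FPKM. The Cyp4a leaders Cyp4a14 and Cyp4a10, fatty acid hydroxylases, overlapped as well, at 776 ± 189 and 731 ± 132.

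Secreted families also ranged from several leaders to 1. Serpina1, which encodes alpha-1-antitrypsin in several mouse copies, had Serpina1b at 3577 ± 40.4, Serpina1c at 3223 ± 109 and Serpina1a at 2092 ± 27.5 FPKM. Their coding sequences are 97.0% identical between Serpina1b and Serpina1a and 96.6% between Serpina1b and Serpina1c, so reads can be shared here too. Fgb held 47.5% ± 0.916 of the fibrinogen chains and Fgg 36.2%. Of the serum amyloids, Saa4, which is made constantly, held 86.7% ± 1.27 and Saa1, an acute phase form, 10.6%. Apoa2 held 54.9% ± 3.18 of the Apoa family against 39.9% for Apoa1, but Apoa1 led with 54.5% when only the highest transcript model of each gene was taken. Among C/EBP transcription factors Cebpa had the highest mean at 86.8 ± 59.6 FPKM, but its share ran from 14.3 to 56.1% and Cebpb, at 83.7 ± 5.48, led in 1 liver.

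**Figure D3:**
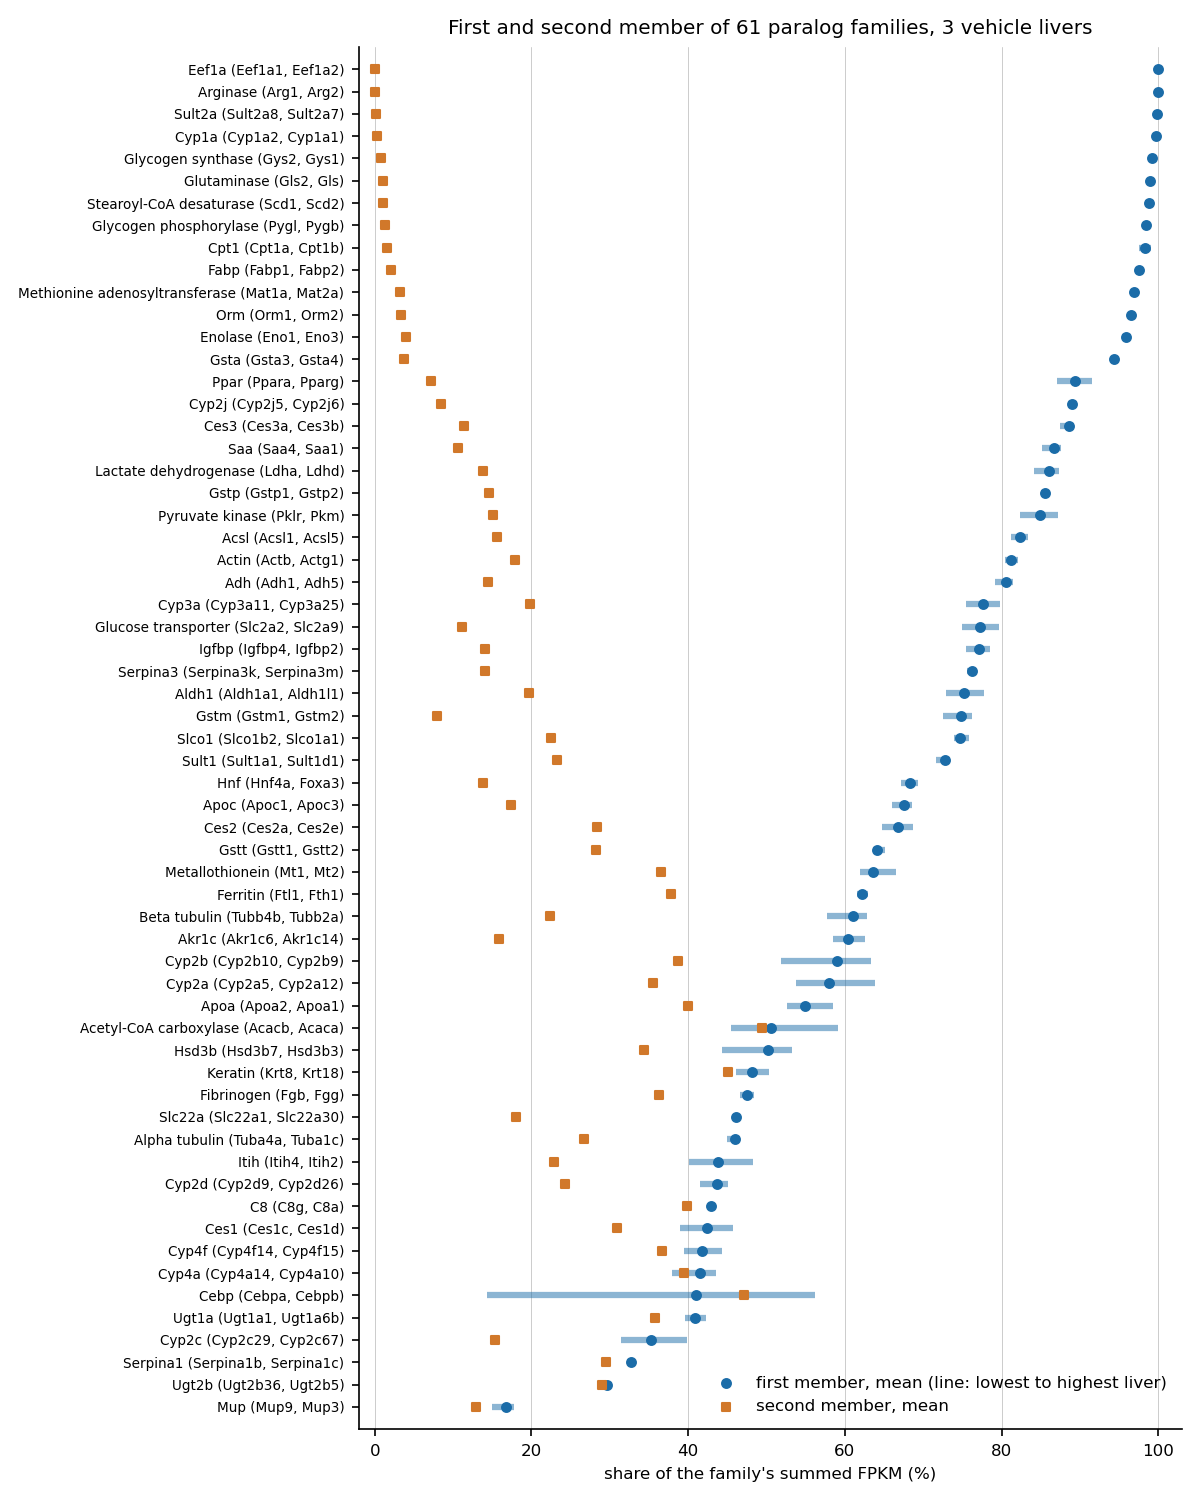
Share of a family's summed FPKM (%) for the first member by mean FPKM (circle, with a line from the lowest to the highest liver) and the second member (square, mean) in 61 of the 64 paralog families, named with both members. Families run from Eef1a, where Eef1a1 holds all of it, to Mup, where Mup9 holds 16.7% with Gm2083 left out. The longest line, for Cebpa, runs from 14.3 to 56.1%.

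Below the gene, several transcript models compete for the same reads. Of the 6367 symbols with a mean of at least 5 FPKM, 4126 have 1 model and 2241 have at least 2. The leading model held at least 90% of the gene's FPKM in 727 of the 2241 (32.4%) and under 60% in 536 (23.9%). It was not the same model in every liver for 338 (15.1%), and in 202 of these the competing leaders start and end within 10 bases of each other. Apoa2 was divided in nearly fixed proportion, with its leading model at 51.4, 51.0 and 51.6% of the gene and the second at 47.1, 47.7 and 47.1%. Itih4, an acute phase protein, had its leading model at 53.3, 51.4 and 50.4%. Chpt1, a phosphatidylcholine enzyme, had its leading model at 39.9% of the gene, and the leader changed between livers.

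Other genes switched model altogether. Ang, the ribonuclease angiogenin, had 210 and 218 FPKM on a model of 799 bases in livers 1 and 2 and 3.04 in liver 3, where a model of 1096 bases held 164. Atp5f1, an ATP synthase subunit, had 163 FPKM on 1 model in liver 1, where livers 2 and 3 were listed at 0 and had 150.8 and 138 on another of the same span. In both genes each liver thus had a high model. Cebpa, the main C/EBP factor of hepatocytes, behaved otherwise. Its 5 models have nearly the same span. In liver 2, 112 FPKM lay on 1 of them, and in liver 3, 130 lay on another. In liver 1 the 5 models held 3.48 to 4.07 FPKM each and summed to 18.7. Liver 1 was thus the low liver and also the one without a leading model; a link between these was not tested. Symbols whose leading model differed between livers varied by 2-fold or more in 4.73% of cases, against 0.946% with a steady leading model and 0.897% with 1 model.

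Some symbols are listed at the place of another gene. Of 6214 symbols with at least 5 FPKM that GENCODE also names, 16 had no overlap with the GENCODE gene of that name, 15 of these shared a locus with another symbol, and 10 are pseudogenes in GENCODE. Symbols were taken to share a locus where 60% of both spans overlapped, which joined 716 symbols at 286 loci, 72 of them with at least 5 FPKM. The urea cycle shows what this does. Ass1, argininosuccinate synthase, was the only gene of a list of 84 abundant liver genes found under 5 FPKM, at 0.753, 0.614 and 0.676. At its span, mm10 chr2:31470309-31520629, is also listed Gm5424, a processed pseudogene that GENCODE places on chromosome 10, at 1507, 1277 and 1300 FPKM. The pair summed to 1362 ± 127, a level near that of Pck1. The coding sequence of Ass1 and the Gm5424 transcript are 99.5% identical, differing at 6 of 1236 bases. Bases 370 to 429 from the start codon are shown, with bases that differ from Ass1 in capitals.
Ass1: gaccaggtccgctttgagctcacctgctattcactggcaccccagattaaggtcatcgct
Gm5424: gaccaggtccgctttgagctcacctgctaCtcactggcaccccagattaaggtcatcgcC
A level for Ass1 alone cannot be read from these values. The same held for Oaz1, an inhibitor of polyamine synthesis, at 2.47 FPKM beside 215 for Oaz1-ps, and for Rpl34, at 11.2 beside 270 for Rpl34-ps1.

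In other pairs the name that carried the signal changed between livers. Rps27, a protein of the small ribosomal subunit, was at 4.26, 531 and 545 FPKM in livers 1, 2 and 3, and Rps27rt, listed at the same span, at 554, 4.83 and 3.95. Their sum was 559, 536 and 549. The 252 coding bases of the pair are identical, and the first 60 show it.
Rps27: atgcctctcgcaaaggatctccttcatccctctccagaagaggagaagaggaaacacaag
Rps27rt: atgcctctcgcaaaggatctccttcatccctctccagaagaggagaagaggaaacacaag
Atp6v0c, the proton channel of the vacuolar ATPase, was at 1.03, 43.4 and 1.75 FPKM, where Atp6v0c-ps2 was at 42.1, 0.0118 and 44.7, and the sum was 43.1, 43.4 and 46.4. Apoo, a protein of the inner mitochondrial membrane, and Apoo-ps summed to 20.2, 20.5 and 26.2. The sums of these 3 pairs spread by 1.04-, 1.07- and 1.28-fold. Tmem254a and Tmem254c did not settle in this way, since their sum of 9.89, 48.1 and 12.8 FPKM still left liver 2 apart.

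The composition of the samples was that of liver. All 12 hepatocyte markers passed 5 FPKM, and none spread by 2-fold. Zonal markers were present from both ends of the lobule, 15 of 16 pericentral and 15 of 16 periportal genes having a mean above 1 FPKM. The periportal gene below that level was Ass1, whose span is shared with Gm5424, so its own level cannot be read. Among the zonal genes above 1 FPKM were Glul, which fixes ammonia next to the central vein, at 193, 164 and 163 FPKM, and Cps1, the entry enzyme of the urea cycle, at 716, 689 and 730. Resident cells gave lower values. The Kupffer cell genes Clec4f and Vsig4 were at 38.3 to 46.9 and 15.9 to 18.5 FPKM, and the endothelial gene Clec4g at 57.6 to 63.6. Of 10 neutrophil markers 1 exceeded 1 FPKM, of 13 lymphocyte markers found none did, and 11 of 12 pancreatic acinar markers were listed at 0. The Y-linked genes Ddx3y and Eif2s3y were at 17.6, 17.5 and 16.8 and at 28.9, 34.6 and 31.6 FPKM, and Xist at 0.0265, 0.0320 and 0.0159. In bulk tissue fewer cells of a type and less RNA per cell cannot be told apart.

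The 3 livers were alike for most genes. Of the 6367 symbols with a mean of at least 5 FPKM, 5168 (81.2%) had their highest liver within 1.2-fold of the lowest on the scale of FPKM plus 1, and the median ratio was 1.11. A symbol is called varying here where the highest liver was at least 2-fold the lowest on that scale, which took 71 symbols, or 1.12%. Of these, 31 reached 3-fold and 10 reached 10-fold. The count was 28 with a pseudocount of 10 FPKM and 129 with the highest transcript model of each gene in place of the sum. Pairs of livers gave 39, 43 and 41 such symbols. Liver 3 was the one apart from the other two more often than the others, higher in 16 of the 71 and lower in 14, where liver 1 was higher in 9 and lower in 12 and liver 2 higher in 11 and lower in 9. The liver apart was not counted over all symbols, so these counts have no background share. Liver 3 was highest in 30 of the 71, beside 25.7% of all symbols of that level. Liver 1 was highest in 21, beside 32.7%, and liver 2 in 20, beside 41.6%. Of the 71, 11 share a locus with another symbol, and 8 of those fell under 2-fold once the locus was summed. Counted by locus, with symbols at 1 locus summed, 62 of 6342 (0.978%) varied. Each liver is a single library, so a gene that sets 1 liver apart has no error of its own.

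**Figure D4:**
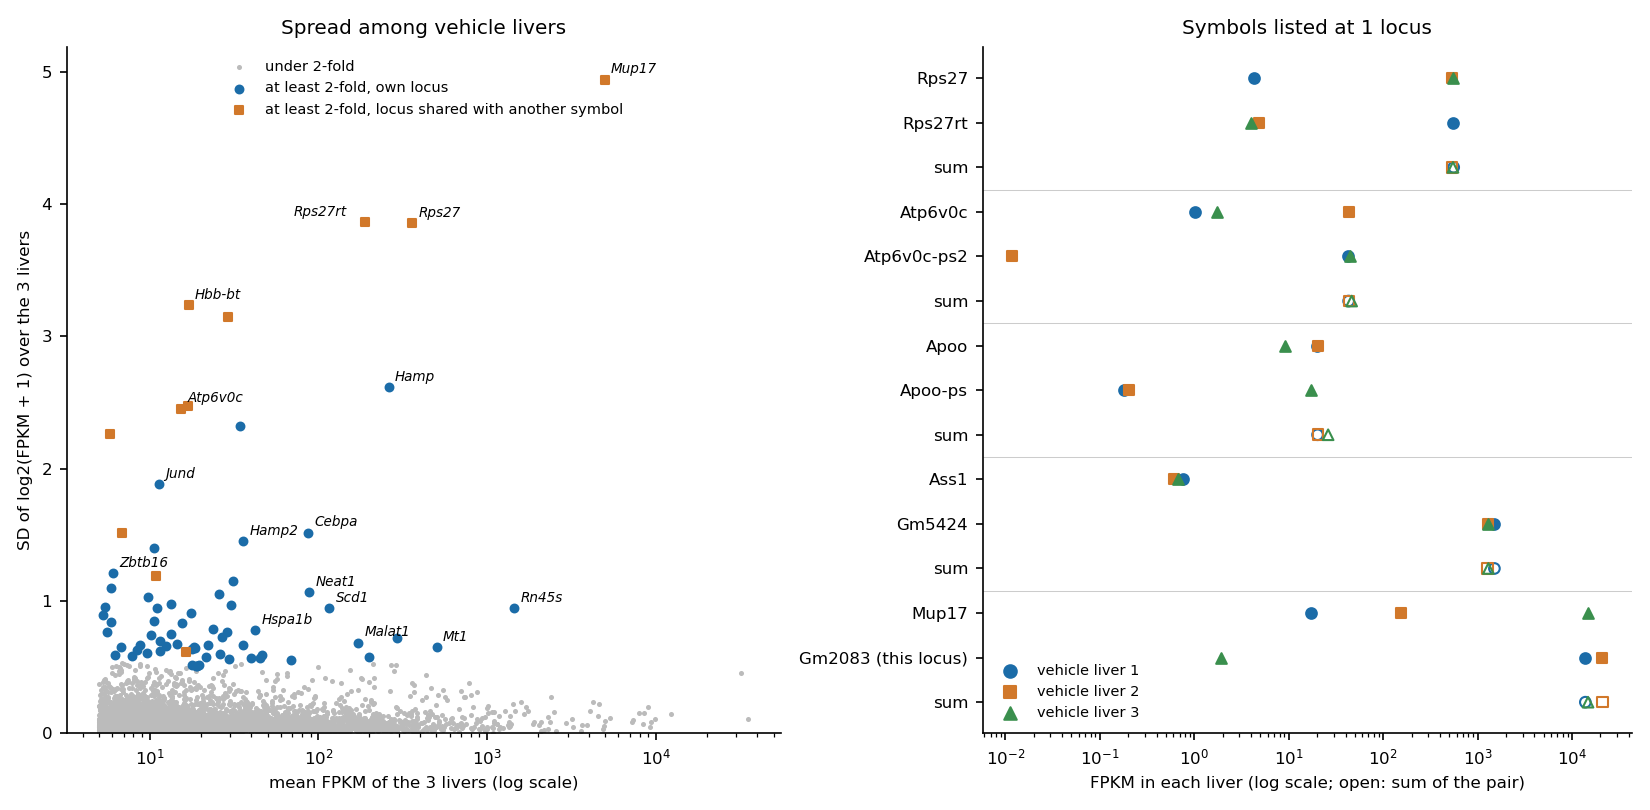
Left, SD of log2(FPKM + 1) over the 3 vehicle livers against mean FPKM (log scale) for symbols with a mean of at least 5, with symbols of at least 2-fold spread in blue (own locus) or as orange squares (locus shared with another symbol). Right, FPKM (log scale) of 5 pairs of symbols listed at 1 locus, 1 point per liver, with their sum as open points; members of the Rps27 pair lie near 4 or near 500 FPKM while their sum is 536 to 559.

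Hepcidin, the liver hormone that blocks iron export, was the most variable gene with a locus of its own among protein-coding genes. Hamp was at 229, 536 and 15.6 FPKM in livers 1, 2 and 3, and its neighbour Hamp2, whose coding sequence is 93.6% identical, was at 64.5, 35.0 and 8.17. Both were lowest in liver 3, and the highest liver exceeded it by 32.4- and 7.14-fold on the scale of FPKM plus 1. The highest liver was not the same, liver 2 for Hamp and liver 1 for Hamp2. Transcripts of the ferritin chains spread little, Ftl1 lying between 2144 and 2228 FPKM. Whether iron differed between the livers was not tested. Scd1 was at 208, 82.1 and 57.6 FPKM, with liver 1 above the others. Cyp7a1, which starts and limits the making of bile acids, was at 50.02, 37.7 and 19.7, lowest in liver 3.

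Several non-coding RNAs varied. Neat1, which builds nuclear paraspeckles, was at 32.8, 89.6 and 143 FPKM, and Malat1, a nuclear speckle RNA, at 254, 97.6 and 165. The low liver differed between the 2, liver 1 for Neat1 and liver 2 for Malat1. Rn45s was lowest in liver 2, at 601.2 FPKM against 2035 and 1684. The libraries were made with an mRNA kit, and for this ribosomal RNA precursor liver and library cannot be told apart. Mir8114 and Mir6236 also varied, but their models are 110 and 122 bases long, where FPKM is least certain. Jund, a member of the AP-1 family, was at 16.0, 17.1 and 0.834 FPKM. It was low in liver 3 alone, where the histone gene Hist1h2bq was also low, at 14.5, 15.5 and 2.84. The ubiquitin ligase Rnf146 was highest in liver 1, at 12.5 FPKM against 2.64 and 2.55. Morf4l2, a chromatin protein, was highest in liver 2, at 50.4 against 12.97 and 14.1. For Neat1, Hist1h2bq and Rnf146 the leading transcript model differed between livers, and a link with their spread was not tested. Hist1h2bq also shares its locus with Hist1h2br, and with that locus summed the ratio was 4.54.

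Several stress and hormone-responsive genes were highest in liver 3. Zbtb16, a zinc finger factor induced by glucocorticoids, was at 2.18, 2.57 and 13.4 FPKM. Fkbp5, which restrains the glucocorticoid receptor, was at 56.5, 47.9 and 100.6. The metallothioneins Mt1 and Mt2, which bind zinc, were at 323, 404 and 775 and at 197, 204 and 477. With Lcn2, a siderophore-binding acute phase protein, at 17.2, 10.9 and 27.9, these were the 5 varying genes among 13 glucocorticoid targets with at least 5 FPKM, beside 1.12% of all symbols. All 5 were highest in liver 3. Other members did not follow, such as Tsc22d3 at 89.96, 91.5 and 80.5, Per1 at 16.6, 13.8 and 14.7 and Sgk1 at 11.8, 13.2 and 7.75. Over the 13, liver 3 was highest in 7, against 25.7% of all symbols of that level, and the median ratio was 1.45.

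The acute phase list, plasma proteins that rise in inflammation, leaned the same way. Of 16 members with at least 5 FPKM, 13 were highest in liver 3 and 3 varied by 2-fold, the 3 being Saa1 at 36.3, 31.6 and 67.5 FPKM, Lcn2 and Hamp. These shares over all symbols of that level were 25.7% and 1.12%. Hamp was lowest in liver 3, and Crp and Orm2 were highest in liver 1. Fgl1, a fibrinogen-like protein, was at 202, 215 and 386 FPKM, haptoglobin (Hp) at 1994, 2292 and 2909 and Saa4 at 320, 283 and 469. Orm1, alpha-1-acid glycoprotein, was low in liver 2 and level in the others, at 339, 182 and 340. The median ratio of the list was 1.61, beside 1.11 over all symbols of that level.

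Chaperones of the heat shock response were highest in liver 3 in 11 of 13, beside 25.7% of all symbols of that level, and 3 of the 13 varied, beside 1.12%. Hspa1b was at 21.8, 38.4 and 66.2 FPKM, Hspa1a at 6.68, 12.7 and 20.8 and their partner Dnajb1 at 12.2, 19.2 and 25.6. The constitutive Hspa8 was at 863, 803 and 895, and the mitochondrial Hspd1, at 292, 296 and 280, was not highest there. Kupffer cell genes were highest in liver 3 in 7 of 7 and interferon genes in 10 of 11, beside 25.7% of all symbols. The differences were small, with median ratios of 1.204 and 1.203 beside 1.107 over all symbols and no member at 2-fold. Summed Kupffer cell markers were 166, 187 and 203 FPKM in livers 1 to 3. The 4 stellate cell and fibroblast genes with at least 5 FPKM had their highest value in liver 1 or 2, a count of 0 in liver 3 that is near the 25.7% of all symbols for so short a list. Decorin (Dcn), a matrix proteoglycan, was at 98.3, 112 and 64.9. Whether these lists are connected was not tested.

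**Figure D5:**
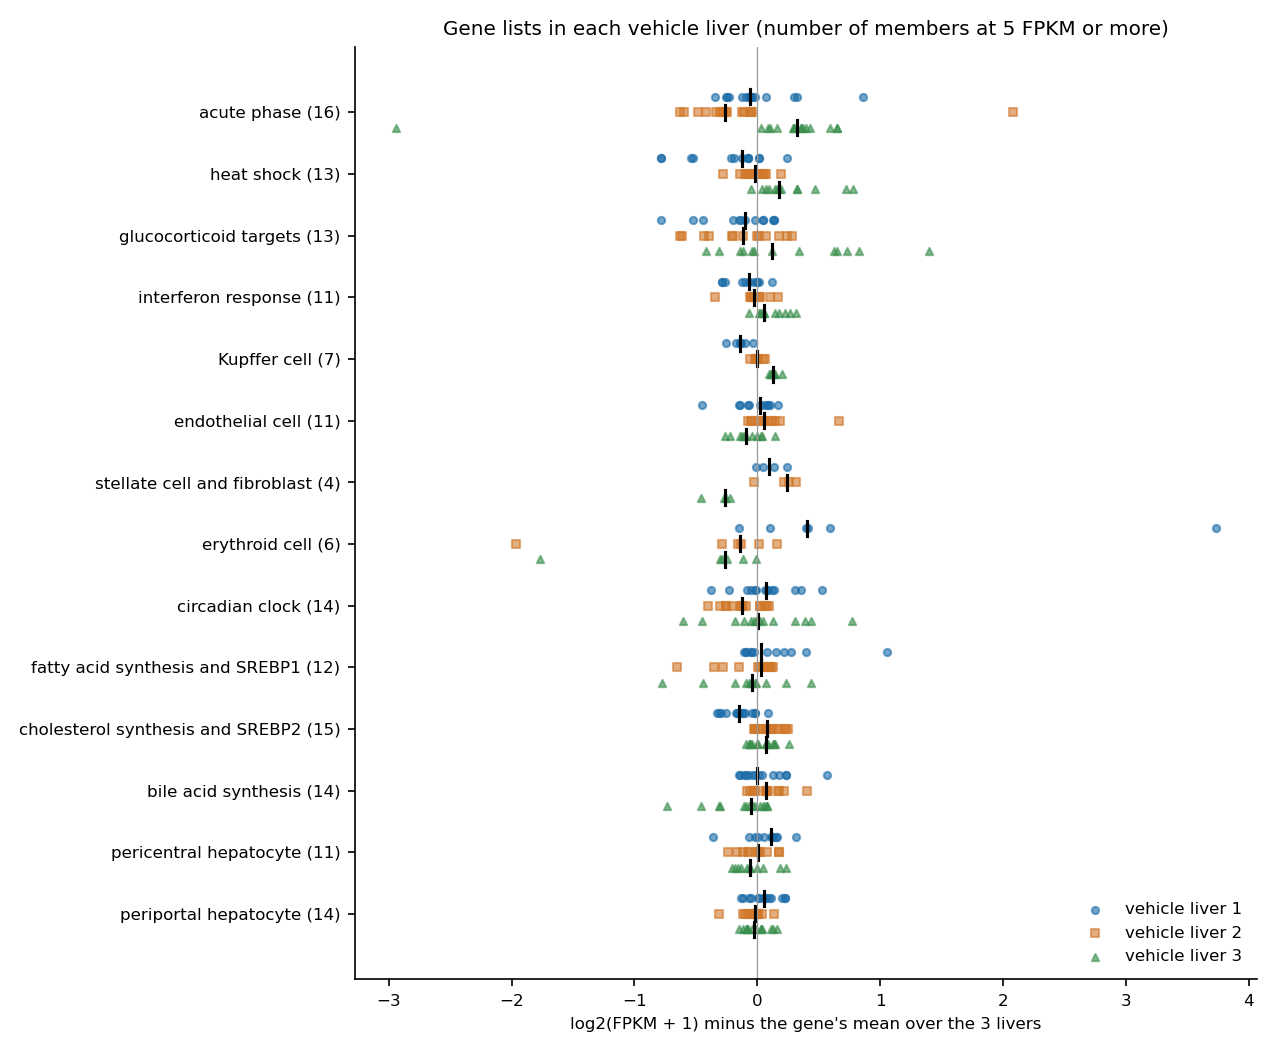
Log2(FPKM + 1) minus the gene's own mean over the 3 vehicle livers, for list members with a mean of at least 5 FPKM; 1 point per gene and liver, with a bar at each liver's median. Most acute phase and heat shock genes lie to the right in liver 3, with Hamp at the far left of it, and stellate cell genes lie to the left in liver 3.

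In the circadian clock 2 of 14 varied, beside 1.12% of all symbols of that level. Among them was Nr1d1, the repressor REV-ERB alpha, at 15.5, 15.2 and 35.5 FPKM. The output factor Dbp, at 84.2, 64.8 and 84.6, and Per2, at 16.2, 15.4 and 13.98, did not reach 2-fold. Of the fatty acid synthesis genes 2 of 12 varied, beside the same 1.12%. These were Scd1 and Lpin1, a phosphatidate phosphatase, the latter at 23.98, 12.7 and 28.05. Fatty acid synthase (Fasn) was at 6.19, 5.84 and 5.38. Cholesterol synthesis genes did not vary by 2-fold in any of 15, although 10 were highest in liver 2, beside 41.6% of all symbols of that level. In each of several other lists 1 gene with at least 5 FPKM varied, beside 1.12% of all symbols of that level. Of 13 fasting genes it was the fasting hormone Fgf21 (5.18, 11.6 and 11.9 FPKM), and of 4 immediate early genes Junb (4.36, 4.75 and 11.2). Of 16 sex-biased genes it was Acot3 (38.0, 32.6 and 17.7), and of 11 endothelial genes the lymphatic and sinusoidal receptor Lyve1 (3.99, 9.83 and 4.86). Hbb-bt, a beta globin listed at the same span as Hbb-b2, was at 51.0 in liver 1, at 0 in liver 2 and at 0.146 in liver 3, and the pair summed to 114.5, 77.6 and 76.0. Of 6 erythroid genes with at least 5 FPKM, 5 were highest in liver 1, beside 32.7% of all symbols of that level. None of the 11 pericentral, 14 periportal, 15 xenobiotic and 8 NRF2 genes with at least 5 FPKM reached 2-fold, which for so few genes is near the 1.12% of all symbols.

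The same rule was applied within each of the other groups, without any comparison of levels between treatments. It took 582 of 7266 symbols (8.01%) among the APAP livers and 101 of 7159 (1.41%) among the LRH1+APAP livers, so the vehicle livers had the smallest share. Of the 71 symbols that varied among vehicle livers, 27 also varied among APAP livers, which is 38.0% of the vehicle list and 4.64% of the APAP list. With the LRH1+APAP livers 29 were shared, or 40.8% and 28.7% of the lists. Symbols that varied in all 3 groups numbered 14, among them Hamp, Saa1, Lcn2, Cebpa, G0s2, an inhibitor of fat breakdown, Mup17 and the pair Atp6v0c and Atp6v0c-ps2.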

How the data were processed

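RNA-seq libraries of 9 livers were deposited as FPKM for 36779 RefSeq transcript models. The authors' FPKM values were used as deposited; the submitters' processing notes name FastQC 0.10.0, Bowtie2 2.2.6, StringTie 1.3.3b and mm10, without roles, and any scaling between libraries is not given in the sources used here. At the depth that made most low values whole, 46.0, 50.7 and 51.2% of them in livers 1 to 3 lay within 0.05 of a whole read. Whole reads were therefore not recovered for nearly all genes, the depth is taken as unknown and no counting error is given. The 3 columns of the Vehicle label were used for levels, and the other 6 only for spread. FPKM was summed per gene symbol (24541 symbols) with Python 3.11.15, pandas 2.3.3 and numpy 2.4.6; figures used matplotlib 3.10.9. Symbols were put into 24 classes, 64 paralog families and 30 lists. With 1 group no test was made: means and SD over 3 livers are given, and the spread covers only these livers, which the labels list as separate samples.

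A gene varied where the highest liver was at least 2-fold the lowest on FPKM plus 1, at a mean of at least 5 FPKM. Coding sequences came from GENCODE M21 and were aligned with Biopython 1.88, and promoters came from RefSeq.

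The members, classes and lists were chosen with earlier results of these data known, and some class names and members were corrected after values were seen. Genes were named by a rule: the 20 highest by mean, the 3 highest of each class, the first 2 of each family, the 20 of largest spread on the log2 scale, the 10 highest with a changing and the 10 highest with a divided leading model, and varying list members; symbols of the Gm and Rik kind were passed over in the lists of highest mean and largest spread. Some genes the rule takes are not reported here. Gm2083, Gm5424, further Mup genes, Malat1, G0s2, the other genes listed at shared loci and list members under 2-fold fall outside it and were named after their values were seen. Alternatives were other levels, pseudocounts, folds and scalings, the highest model or locus in place of the sum, and leaving out each liver.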

Additional observations from a re-analysis of the deposited data

How the results depend on the processing

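The count of varying genes, 71 as reported, depended on the settings. It was 28 with a pseudocount of 10 FPKM, 31 at 3-fold, 260 at 1.5-fold, 112 at a mean of at least 1 FPKM, 122 with no floor and 129 with the highest model in place of the sum, of which 65 were among the 71. It was 69 after upper quartile scaling and 71 after quantile scaling, with 69 and 70 of the reported genes. Leaving out 1 liver gave 38 to 43, since each such count compares 2 livers. Genes detected in every liver numbered 6085 at a level of 5 FPKM. Genes with a dominant model numbered 1166 at a mean of at least 1 FPKM, where more genes enter. The share of the classes together was 69.59% with the highest locus of each transcript, 64.92% without the highest gene and 72.73% with Gm2083 among the Mup genes, a setting added after the data were seen. Of 168 shares of single classes recomputed over all settings, 35 moved by over 1 SD. Of these, 22 moved without the highest gene, where the smaller total by itself raises the shares of the other classes. With the highest locus of each transcript 12 moved, and with Gm2083 among the Mup genes 1 moved. The family leader became Apoa1 and Cebpb with the highest model, and Cebpb also without liver 2 or without liver 3; without liver 3 Acaca led Acacb. Recomputing without mitochondrially encoded genes was not run, since these were not analysed here. No paired analysis was possible because a single group is described and no groups were compared. Depth is unknown, and near-identical genes limit single levels.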
